A study of Homo sapiens with 18 samples.

Results

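Pericentromeric windows are the 10-kb stretches of hg19 that lie within 2 Mb of the centromeric assembly gap, the run of at least 1 Mb of unknown bases at the centromere. A window was kept when at least 50% of its bases are known. On chromosomes 1 to 22 this gave 7481 windows out of 268455, on 40 chromosome arms, with 74.6 Mb of known sequence. On chromosomes 13, 14, 15 and 22 the gap runs from the first base and also takes in the short arm, so that windows exist on the long arm alone. The gap is 21050000 bp long on chromosome 1, 18150000 bp on chromosome 9 and 11100000 bp on chromosome 16. On the other chromosomes with windows on both sides it spans 3000000 to 3200000 bp. Distance from the gap is therefore not distance from the centromere, least of all beside the long gaps. The remaining 260974 windows served as windows elsewhere.

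The cells were undifferentiated HL-60/S4, an established human myeloid leukemia line, fixed with formaldehyde and permeabilized in all groups. For xChIP-seq, sonication came first, and the fragments were then immunoprecipitated with a rabbit polyclonal antibody against histone H1.2 or H1.5. For xxChIP-seq, the permeabilized cells took up the antibody while intact and were fixed again, and sonication followed. The study has 18 samples, of which 12 are immunoprecipitated (3 replicates for each of 4 combinations) and 6 are Input, not analysed here. Each of the 4 combinations is represented by 1 list of peak positions merged over its replicates, with no score and no read count, so that depth is unknown, no replicate spread can be given, and every value below describes 1 merged list. The spread quoted is the SD over chromosome arms, which are not replicates. All samples come from 1 cell line, and the copy number of its chromosome arms was not analysed here. The authors kept reads that align to 1 place only, which bears on these windows because many of their sequences occur more than once.

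The centromere is the site where the kinetochore forms. In human chromosomes it is built of alpha satellite, a tandem repeat whose units may carry the CENP-B box, the binding site of the protein CENP-B. The flanks hold older, diverged alpha satellite, other satellites and segmental duplications, and are classic constitutive heterochromatin, compacted and late replicating. Linker histones such as H1.2 and H1.5 bind where the DNA enters and leaves the nucleosome and are known for their part in chromatin compaction.

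The sequences below show what kind of DNA some of the peaks beside the gap lie in. They give the 200 bases at the centre of the longest pericentromeric peak in largely unique sequence, meaning that at least 90% of 50-base words occur once in the reference, for xChIP H1.5 and xxChIP H1.2. Both are plus strand, 5′ to 3′, with any CpG dinucleotide in capitals. These peaks overlap each other on 7q, with centres at chr7:62326636-62326835 (xChIP H1.5) and chr7:62326110-62326309 (xxChIP H1.2) and lengths of 78119 and 262472 bp.
xChIP H1.5, 7q: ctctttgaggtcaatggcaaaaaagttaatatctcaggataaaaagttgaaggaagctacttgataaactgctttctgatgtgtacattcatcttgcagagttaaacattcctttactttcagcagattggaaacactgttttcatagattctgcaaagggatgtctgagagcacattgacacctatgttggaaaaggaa
xxChIP H1.2, 7q: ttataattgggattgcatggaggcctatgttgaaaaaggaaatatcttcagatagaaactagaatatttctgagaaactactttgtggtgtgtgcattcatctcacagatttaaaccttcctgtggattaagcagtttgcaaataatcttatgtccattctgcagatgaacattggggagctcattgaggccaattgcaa
Each stretch holds 0 CpG dinucleotides. The 7q peak of xxChIP H1.2 was covered to 93.6% in xChIP H1.2, 75.1% in xChIP H1.5 and 100% in xxChIP H1.5. The corresponding peak of xChIP H1.2 lies on 20q, 772 kb from the gap, spans 208623 bp and was covered to 54.3% in xChIP H1.5 but to 2.91% in xxChIP H1.2 and 1.96% in xxChIP H1.5.

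A further pair of stretches comes from windows that pass the repeat cutoffs given below, and the second was chosen after its values were seen. The first lies at chr2:92310140-92310439 on 2p, 16.03 kb from the gap, in the pericentromeric window with the most matches to the CENP-B box (24 matches, motif NTTCGNNNNANNCGGGN searched on both strands). The box is in capitals. The second lies at chr4:49120501-49120650 on 4p, 540 kb from the gap, in the window with the highest identity at a shift of 5 bases (74.9%), and its ATTCC units, those of human satellites II and III, are in capitals (24 units).
CENP-B box, 2p: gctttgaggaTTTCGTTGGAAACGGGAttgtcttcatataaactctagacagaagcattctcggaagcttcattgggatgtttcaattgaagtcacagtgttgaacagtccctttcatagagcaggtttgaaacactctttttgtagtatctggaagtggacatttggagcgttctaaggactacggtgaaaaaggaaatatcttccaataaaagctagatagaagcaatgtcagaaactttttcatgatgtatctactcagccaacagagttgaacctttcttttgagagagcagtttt
ATTCC repeat, 4p: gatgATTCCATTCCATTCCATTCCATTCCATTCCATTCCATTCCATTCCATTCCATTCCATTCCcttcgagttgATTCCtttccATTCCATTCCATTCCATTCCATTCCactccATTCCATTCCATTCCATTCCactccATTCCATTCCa
The 2p window was covered to 100% by each of the 4 lists. The 4p window was covered to 100% in xChIP H1.2 and in xChIP H1.5 and to 0% by both xxChIP lists.

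All 4 lists covered more of the pericentromeric windows than of windows elsewhere with the same GC content. Covered share is the percentage of known bases lying in a peak. It was 32.3% in xChIP H1.2, 24.2% in xChIP H1.5, 29.8% in xxChIP H1.2 and 26.1% in xxChIP H1.5. Windows elsewhere, weighted to the same GC content in bins of 1 percentage point, were covered to 25.7%, 16.3%, 20.99% and 17.8%, which gives ratios of 1.26, 1.48, 1.42 and 1.47. The mean over the 40 arms was 32.5% ± 12.4 (SD over arms) in xChIP H1.2, 24.7% ± 9.45 in xChIP H1.5, 30.5% ± 12.1 in xxChIP H1.2 and 26.7% ± 11.6 in xxChIP H1.5. The arm lay above its own GC-matched value in 25 of 40 arms in xChIP H1.2 and in 32 of 40 for each of the other lists. Windows within the same distance of a chromosome end, by comparison, had ratios of 1.03, 1.11, 1.21 and 1.25 in the same order.

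Counted as windows, 2048 pericentromeric windows (27.4%) were covered to at least 50% in xChIP H1.2, against 21.5% of all windows. For xChIP H1.5 it was 1349 windows (18.03%), against 9.53% of all windows. For xxChIP H1.2 it was 1863 (24.9%), against 13.7%, and in xxChIP H1.5 1508 (20.2%), against 10.5%. At least 1 list passed this level in 3955 windows (52.9%), against 41.6% of all windows. Windows with no covered base were fewer than elsewhere, at 2551 (34.1%, against 37.5% of all windows) in xChIP H1.2, 2961 (39.6%, against 46%) in xChIP H1.5, 2740 (36.6%, against 41%) in xxChIP H1.2 and 3002 (40.1%, against 44.5%) in xxChIP H1.5.

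With both sides of the gap pooled, coverage was highest next to the gap and fell away from it, step by step over the first 600 kb in the xxChIP lists. In the nearest 100 kb the covered share was 47.3% in xChIP H1.2, 46.8% in xChIP H1.5, 57.4% in xxChIP H1.2 and 45.9% in xxChIP H1.5. For xxChIP H1.2 it was 49.8% at 100 to 200 kb, 45.0% at 200 to 300 kb, 41.8% at 300 to 400 kb, 34.9% at 400 to 500 kb and 25.9% at 500 to 600 kb. For xxChIP H1.5 the same steps were 44.1%, 39.5%, 33.5%, 29.5% and 24.7%. For xChIP H1.2 the share had already come down to 33.3% at 100 to 200 kb and then stayed between 27.2% and 36.5% out to 2 Mb. Beyond the 2 Mb, at 2 to 5 Mb from the gap, the covered shares were 29.2%, 18.4%, 21.03% and 17.8% in the order xChIP H1.2 and H1.5, then xxChIP H1.2 and H1.5.

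**Figure D1:**
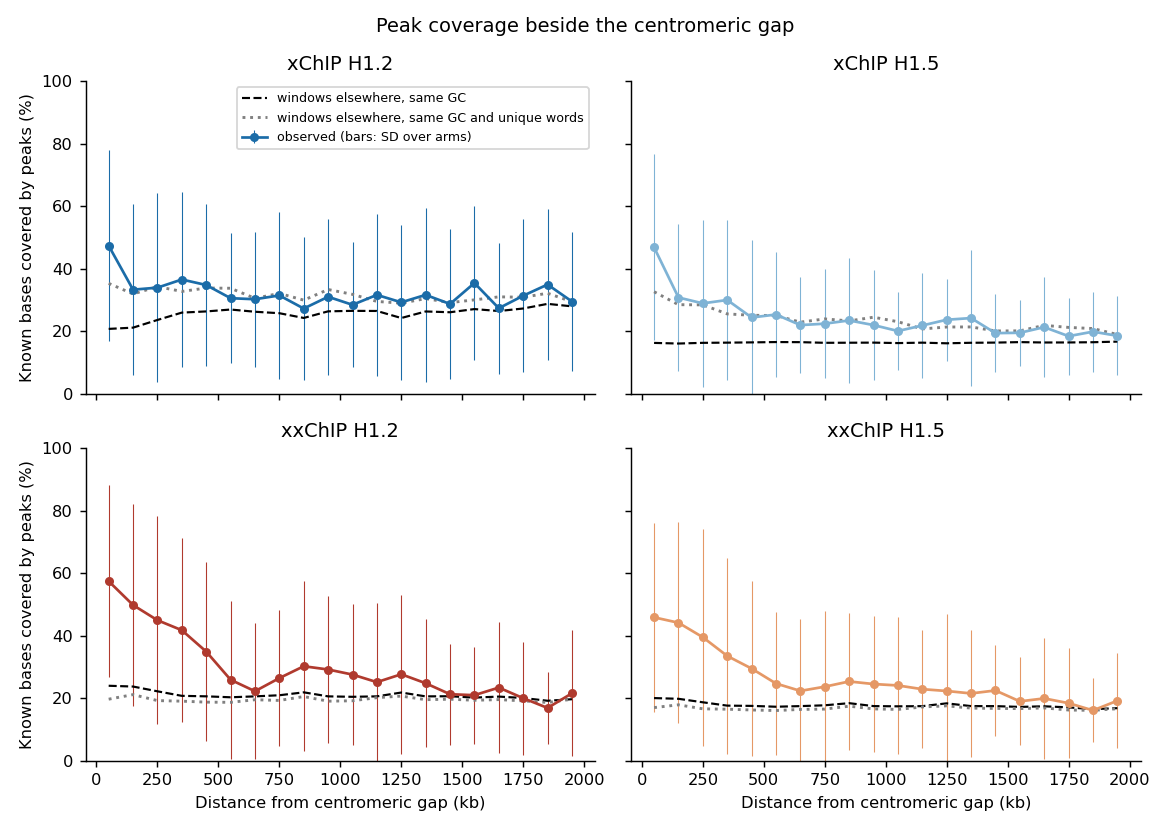
Covered share (%) in steps of 100 kb from the centromeric gap, 1 panel per list. Points are pooled over the arms with windows in the step and bars are the SD over arms, the dashed line is the value of windows elsewhere with the same GC content, and the dotted line that of windows elsewhere with the same GC content and share of unique words. The xxChIP curves start at 57.4% and 45.9% and meet both lines by about 2000 kb, while the xChIP curves lie near the dotted line beyond the first 100 kb.

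The share of the nearest 100 kb was higher on the short-arm side of the gap. On that side it was 69.7% ± 24.0 (mean and SD over 18 arms) in xChIP H1.2, 63.1% ± 28.2 in xChIP H1.5, 74.4% ± 26.97 in xxChIP H1.2 and 56.9% ± 33.2 in xxChIP H1.5. On the long-arm side, with 22 arms, it was 29.4% ± 22.2, 33.6% ± 24.2, 43.7% ± 26.96 and 37.1% ± 24.9. The difference exceeds the SD over arms in both xChIP lists and in xxChIP H1.2, but not in xxChIP H1.5. The sides also differed in content. Alpha-satellite-like windows, defined below, were 65 of 180 on the short-arm side and 44 of 220 on the long-arm side. Their part in the difference was not tested. On the long-arm side the pooled share of the nearest 100 kb was below that at 100 to 200 kb in 3 lists, namely xChIP H1.2 (29.3%, then 37.2%) and the xxChIP lists (43.68%, then 44.7%, with H1.2 and 36.96%, then 44.2%, with H1.5), and slightly above it in xChIP H1.5 (33.55%, then 32.05%).

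Arm by arm, the nearest 500 kb was covered more than the stretch from 1500 to 2000 kb in 32 of 40 arms in xxChIP H1.2, in 30 in xxChIP H1.5, in 28 in xChIP H1.5 and in 24 in xChIP H1.2. The pooled shares near and far were 45.9% and 20.6% in xxChIP H1.2, 38.6% and 18.5% in xxChIP H1.5, 32.3% and 19.5% in xChIP H1.5, and 37.3% and 31.7% in xChIP H1.2. The mean difference over arms was 24.6 percentage points ± 22.8 (SD over 40 arms) in xxChIP H1.2, 19.3 ± 23.6 in xxChIP H1.5, 12.3 ± 17.9 in xChIP H1.5 and 6.24 ± 31.1 in xChIP H1.2. The xChIP H1.2 difference is small beside the spread over arms. None of these shares is matched. Windows elsewhere with the same GC content and unique words gave 33.6% near and 30.7% far in xChIP H1.2. In xChIP H1.5 they gave 28.1% and 20.6%, in xxChIP H1.2 19.6% and 19.3%, and in xxChIP H1.5 16.9% and 16.5%. On 12q, xChIP H1.2 covered 84.1% near and 12.8% far, whereas on 8p it covered 12.9% near and 69.5% far, and on 20q 18.8% near and 70.9% far. The xxChIP H1.2 list went the other way on these last arms, with 70.4% near and 6.94% far on 8p and 66.7% near and 8.66% far on 20q. Each share is that of a single arm, with 35 to 50 windows in each stretch.

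**Figure D2:**
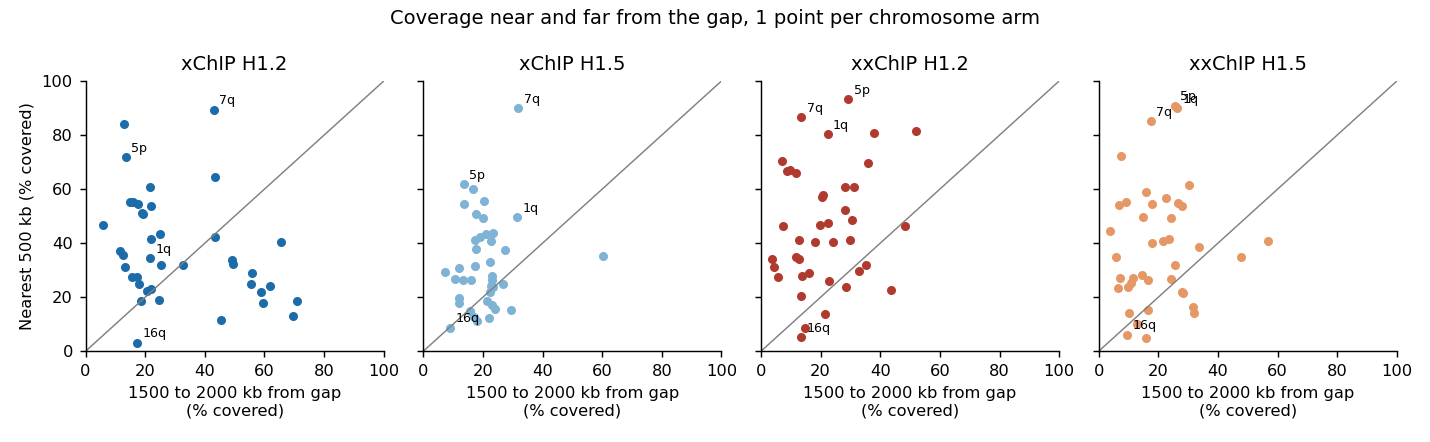
Covered share (%) of the nearest 500 kb (vertical axis) against the stretch from 1500 to 2000 kb (horizontal axis), 1 point per chromosome arm and 1 panel per list, with the line of equal shares. In xxChIP H1.2, 32 of 40 arms lie above the line, and in xChIP H1.2 24 of 40, with a group of arms well below it.

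The higher coverage beside the gap lay in long peaks. Peaks of at least 20 kb covered 31.9% of the nearest 500 kb in xxChIP H1.2, against 3.95% of GC-matched windows elsewhere, a ratio of 8.06. For xxChIP H1.5 it was 24.3% against 1.88%, in xChIP H1.5 16.6% against 1.40%, and in xChIP H1.2 22.2% against 7.41%. The shares in peaks shorter than 20 kb were not raised in this way. In the same 500 kb their ratios were 0.768 in xxChIP H1.2, 0.847 in xxChIP H1.5, 0.936 in xChIP H1.2 and 1.06 in xChIP H1.5. These ratios are per known base, and a base in a long peak cannot also count for a short peak. The split thus lowers them where long peaks are common, as it does the number of peaks. Short peaks in the sequence outside long peaks were not compared. The number of peaks was about the same or lower, at 45.1 per Mb of pericentromeric windows and 51.1 elsewhere in xxChIP H1.2, and 50.7 and 50.0 in xChIP H1.5. How far merging of replicates lengthened these peaks was not tested.

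**Figure D3:**
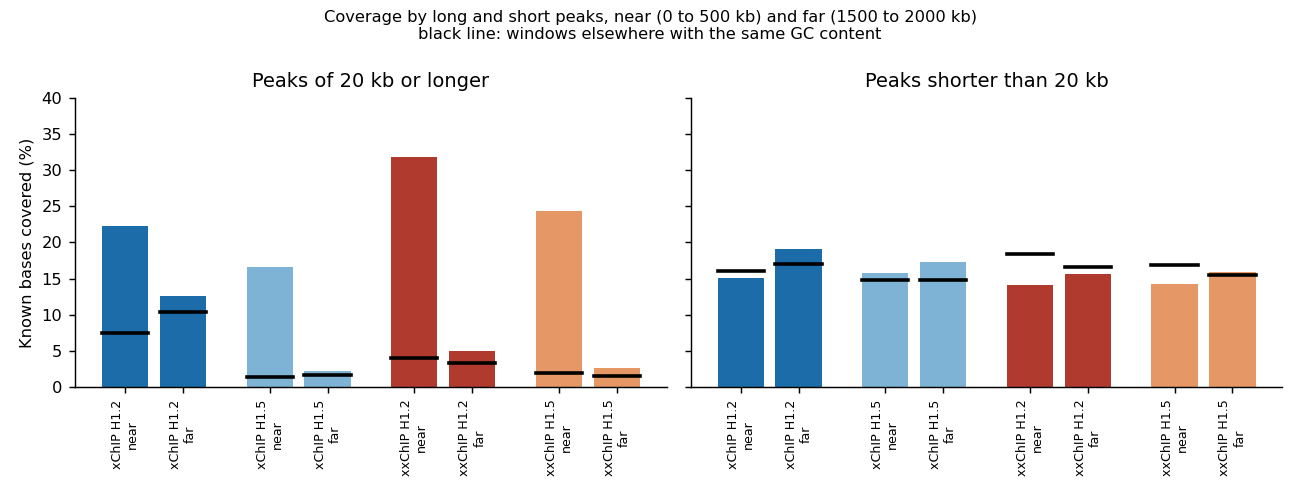
Covered share (%) by peaks of at least 20 kb (left) and shorter peaks (right), in the nearest 500 kb and from 1500 to 2000 kb, for each list; bars start at 0 and black lines mark windows elsewhere with the same GC content. Long peaks near the gap reach 31.9% in xxChIP H1.2 against 3.95%, while the bars for short peaks lie between 14.1% and 19.05%.

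The longest xChIP H1.2 peak (359627 bp) and the longest xChIP H1.5 peak (236674 bp) overlap on 12q, starting 87.0 and 133 kb from the gap. The longest xxChIP H1.2 peak (297000 bp) lies on 11q, 62.8 kb from the gap, and the longest xxChIP H1.5 peak (276547 bp) lies on 7q, 1130 kb from the gap, and overlaps the peaks whose centres are printed above. Runs of adjacent windows, each covered to at least 50%, were longest at chr12:37940001-38380000 in xChIP H1.2 (440 kb), chr12:37990001-38270000 in xChIP H1.5 (280 kb), chr11:54760001-55050000 in xxChIP H1.2 (290 kb) and chr7:62180001-62460000 in xxChIP H1.5 (280 kb). Of these runs, the one on 11q overlaps a protein-coding gene, TRIM48, a member of the tripartite motif family, and the others overlap none.

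Repeated sequence was more common in the pericentromeric windows. The share of sampled 50-base words that occur once in the reference was 75.1% there and 92.9% elsewhere, and 52.8% of pericentromeric windows reached 90%, against 84.7% elsewhere. When windows elsewhere were matched on this share as well as on GC content, the ratio in xChIP H1.2 came to 1.02 and that in xChIP H1.5 to 1.03, with 19 and 23 of 40 arms above the matched value. For xxChIP H1.2 it was 1.52 (34 of 40 arms) and in xxChIP H1.5 1.56 (33 of 40 arms). Elsewhere in the genome, windows with over 50 and up to 75% unique words were covered to 56.6% in xChIP H1.2 and 11.2% in xxChIP H1.2, against 21.4% and 21.8% in windows with over 90%. The pericentromeric windows with over 50 and up to 75% unique words were covered to 42.0% in xChIP H1.2 and 32.3% in xxChIP H1.2. Windows with under 10% unique words numbered 533, and 283 of them (53.1%) were covered to at least 50% by some list, against 978 of 2230 such windows elsewhere (43.9%).

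In the 651 pericentromeric windows of the nearest 500 kb that have at least 90% unique words, coverage was again above that of windows elsewhere with the same uniqueness limit and GC content. The ratio was 1.78 in xChIP H1.2, 1.95 in xChIP H1.5, 1.97 in xxChIP H1.2 and 2.13 in xxChIP H1.5. From 1500 to 2000 kb (1221 windows) it was 1.18, 1.06, 1.01 and 1.02. Of the 26 arms with at least 5 such windows near the gap, 15, 16, 23 and 22 lay above their matched value. The limit on unique words does not remove satellite. For example, the 13 alpha-satellite-like windows of 12q, a class defined below, had 91.1% unique words. How much of the coverage in the 651 windows falls in satellite was not tested.

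Alpha-satellite-like windows and windows of a 5-base repeat carried some of the highest coverage. A window was called alpha-satellite-like when at least 50% of its bases equal the base 171 positions further on, the shift that gave the highest identity beside the gaps. There were 194 such pericentromeric windows on 28 arms, 109 of them in the nearest 100 kb, and 25 elsewhere. They were covered to 82.8% in xChIP H1.2, 81.3% in xChIP H1.5, 84.2% in xxChIP H1.2 and 67.04% in xxChIP H1.5, and the 25 elsewhere to 97.7%, 89.9%, 83.7% and 27.03%. All 10 such windows of 7p were covered to 100% by each list, whereas the 10 windows of 5q were covered to 2.90%, 4.34%, 32.3% and 20.95% in the order of lists used above. The 11 windows of 11p were covered to 100% by 3 lists and to 85.2% in xxChIP H1.5.

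The CENP-B box, spelled out above, was matched in 146 pericentromeric windows (1.95%), against 0.340% of all windows. Alpha-satellite-like windows with a box (91) were covered to 84.5%, 86.4%, 83.3% and 57.8%, and those without a box (103) to 81.2%, 76.8%, 84.9% and 75.2%, in the order xChIP H1.2 and H1.5, then xxChIP H1.2 and H1.5. For xxChIP H1.5 the windows with a box were thus the lower group by description, and they also had fewer unique words (51.2% against 75.4%). On 1p the 8 alpha-satellite-like windows held 112 boxes and were covered to 100% by both xChIP lists, 83.2% in xxChIP H1.2 and 23.9% in xxChIP H1.5.

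Windows in which at least 50% of bases repeat after 5 positions numbered 49 on 9 arms, with 5 elsewhere. The ATTCC unit was looked for in the 4p window printed above alone. Pooled over arms, xChIP H1.2 covered 88.8% and xChIP H1.5 65.3%, xxChIP H1.2 52.7% and xxChIP H1.5 38.2%. The direction differed between arms. On 10p (13 windows) the shares were 98.5% and 96.7% in xChIP and 65.2% and 56.5% in xxChIP, H1.2 first. On 20q (3 windows) they were 99.3% and 35.5% in xChIP and 99.5% and 100% in xxChIP. On 9q (2 windows) they were 74.3% and 50.0% in xChIP and 89.4% and 89.2% in xxChIP. The 10 windows on 4p, including the ATTCC stretch printed above, were covered to 96.7% and 95.4% by the xChIP lists and to 0% by both xxChIP lists. The 10 windows on 21p were covered to 98.2% in xChIP H1.2 and 99.7% in xxChIP H1.2, but to 26.3% in xChIP H1.5 and 54.1% in xxChIP H1.5. The 7238 windows with neither repeat, meaning identity below 50% at both shifts, were covered to 30.6%, 22.4%, 28.2% and 24.9%. These shares were still above those of windows elsewhere, 26.9%, 16.4%, 20.2% and 17.2%, which were not matched on GC content here. The cutoff does not remove diverged satellite whose identity lies below it. How much of the coverage in these windows falls in such sequence was not tested.

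Arms differed widely. The highest coverage in every list was on 7q, at 70.1% in xChIP H1.2, 63.3% in xChIP H1.5, 60.9% in xxChIP H1.2 and 57.6% in xxChIP H1.5, or 3.42, 3.95, 2.52 and 2.84 times the GC-matched value. On the GC-matched scale 7q was highest in the xChIP lists alone, since 1q (2.81) and 21p (2.69) were above it in xxChIP H1.2 and 1q (3.30) in xxChIP H1.5. On 7q the nearest 500 kb, where 23.7% of words were unique, was covered to between 85.2% and 89.9%. All lists again covered most of the largely unique stretch between 1131 and 1401 kb. In between there were breaks, with no xxChIP H1.5 peak in the windows at 1041 to 1121 kb and no xxChIP H1.2 peak in those from 1091 to 1121 kb, while xChIP H1.2 was low in most windows between 711 and 811 kb. The second highest arm was 8p in xChIP H1.2 (57.9%), 2p in xChIP H1.5 (39.2%), 21p in xxChIP H1.2 (60.3%) and 1q in xxChIP H1.5 (56.1%). Over all windows of an arm, the share of unique words was 55.7% on 7q, 90.1% on 8p, 33.9% on 2p, 41.2% on 21p and 20.7% on 1q. On 1q the nearest 500 kb was covered to 80.4% in xxChIP H1.2 and 90.0% in xxChIP H1.5, against 34.3% in xChIP H1.2 and 49.7% in xChIP H1.5, and 27.8% of its words were unique.

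**Figure D4:**
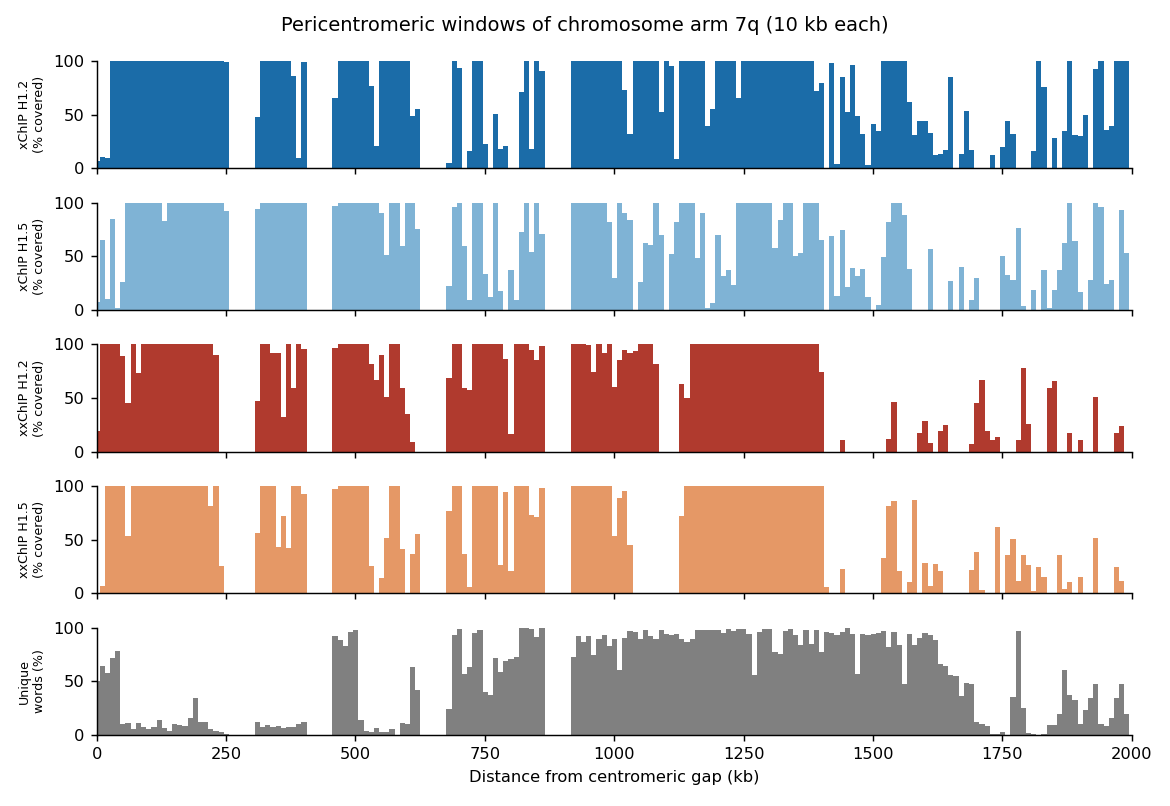
Covered share (%) of each 10-kb window of 7q for the 4 lists, and the share of unique words (%), by distance from the gap in kb; spaces hold no window with enough known sequence. All 4 lists cover long stretches out to about 1400 kb, at both low and high shares of unique words, with breaks that differ between lists.

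The lowest coverage was on 16q, at 15.97% in xChIP H1.2, 9.12% in xChIP H1.5 and 7.94% in xxChIP H1.5, and at 10.8% in xxChIP H1.2, where 18q was marginally lower (10.7%). On 16q 90.7% of words were unique, and the ratios to GC-matched windows lay between 0.472 and 0.564. The arms 16q and 1q border long gaps, named at the start. The other low arms were 5q in xChIP H1.2 (16.7%), 17q in xChIP H1.5 (11.7%) and 18q in xxChIP H1.5 (9.30%), although 18q was covered to 46.0% in xChIP H1.2.

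**Figure D5:**
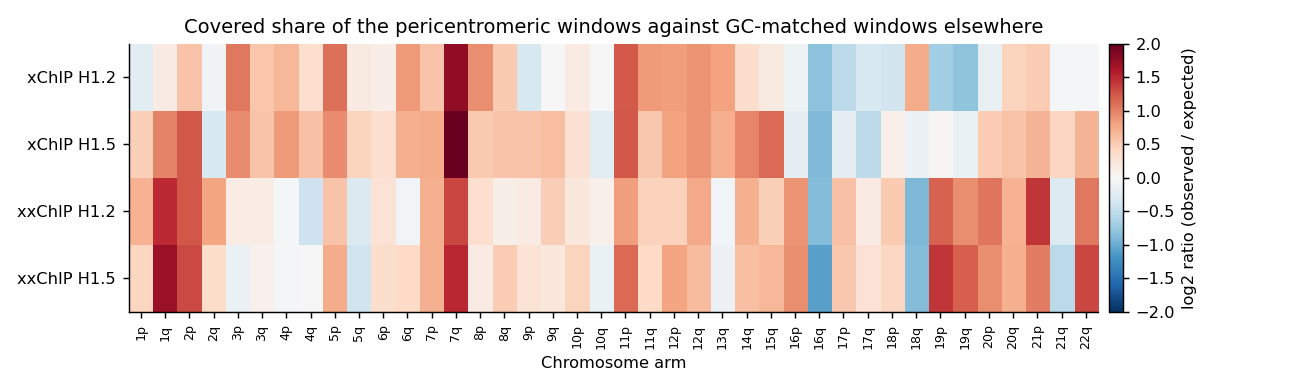
log2 ratio of the covered share of each arm's pericentromeric windows to that of windows elsewhere with the same GC content, for the 40 arms (columns) and 4 lists (rows). Red marks arms above the matched value and blue arms below it, with 7q above and 16q below it in every list.

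Windows covered to at least 50% by all 4 lists numbered 297 (3.97%), against 0.202% of all windows, and 245 lay elsewhere. Pericentromeric windows, 2.79% of all windows, thus held 54.8% of those covered by all 4 lists. Of the 297, 209 lay in the nearest 500 kb, where they were 10.96% of windows, and 83 in the nearest 100 kb, on 20 arms, where they were 20.8%. From 1500 to 2000 kb they were 0.322%. The arm 7q held 75 of them, 12q 24 and 11p 23, and they occurred on 31 arms; without 7q, 222 of 7301 windows (3.04%) remained. Alpha-satellite-like windows made up 111 of the 297 and windows of the 5-base repeat 11, and 121 of the 297 had at least 90% unique words.

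At the other end, 363 pericentromeric windows (4.85%) held no peak of any list, close to the 4.72% of all windows, and 53 of them lay on 16q. The longest run of such windows was chr16:46630001-46800000, 170 kb long, its nearest window centred 249 kb from the gap, with 91.6% unique words and a GC content of 44.4%. It overlaps SHCBP1, VPS35, ORC6 and MYLK3. VPS35 is part of the retromer, which sorts endosomal cargo, ORC6 belongs to the origin recognition complex, and MYLK3 is the cardiac myosin light chain kinase.

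The lists were then compared with each other. Of the isotypes, H1.2 covered more than H1.5 by 8.06 percentage points in xChIP (7.74 ± 9.92, mean and SD over 40 arms) and by 3.69 points in xxChIP (3.78 ± 4.84), each in 30 of 40 arms. GC-matched windows elsewhere gave 9.34 and 3.20 points, so that the isotype differences were near those of the rest of the genome. In xChIP, H1.2 was higher by at least 25 points in 1641 windows (21.9%, against 23.7% of all windows) and lower in 771 (10.3%, against 8.05%). In xxChIP, H1.2 was higher in 1186 (15.9%, against 15% of all windows) and lower in 796 (10.6%, against 10%).

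Between protocols, xChIP H1.2 covered 2.53 points more than xxChIP H1.2 (2.01 ± 16.3 over arms, higher in 18 and lower in 22 arms), and GC-matched windows elsewhere gave 4.70. xChIP H1.5 covered 1.84 points less than xxChIP H1.5, a difference of -1.84 (-1.95 ± 9.42 over arms, lower in 21 of 40), and GC-matched windows gave -1.44. Neither difference exceeds the spread over arms. With windows elsewhere matched on unique words too, the expected differences became 12.0 and 6.74 points, both above the observed ones. xChIP H1.2 was at least 25 points above xxChIP H1.2 in 2090 windows (27.9%, against 29% of all windows) and below it in 1904 (25.5%, against 21.4%). For H1.5 the counts were 1471 (19.7%, against 17.1%) and 1652 (22.1%, against 18.6%).

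The arms behind these sums went in opposite directions. The xChIP H1.2 minus xxChIP H1.2 difference ran from -27.8 points on 21p to 35.3 points on 18q, and the H1.5 difference from -27.6 points on 19p to 13.02 points on 13q. Windows covered to at least 50% by both xxChIP lists and by neither xChIP list numbered 580 (7.75%), against 4.55% of all windows, with 225 in the nearest 500 kb (11.8% of the windows there) and 38 on 19p. Windows with the opposite pattern, both xChIP lists and neither xxChIP list, numbered 481 (6.43%), against 5.41% of all windows, with 99 in the nearest 500 kb (5.19%) and 31 on 13q.

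The pericentromeric windows held the transcription start sites of 406 protein-coding genes (GENCODE v44 lifted to GRCh37, the hg19 assembly). Their gene bodies had median covered shares of 18.9% in xChIP H1.2, 9.02% in xChIP H1.5, 5.22% in xxChIP H1.2 and 3.16% in xxChIP H1.5, against 27.8%, 10.7%, 6.11% and 4.54% for 18823 genes elsewhere. Gene bodies covered to at least 50% numbered 98 in xChIP H1.2 (24.1%, against 32.1% of all genes), 25 in xChIP H1.5 (6.16%, against 5.01%), 25 in xxChIP H1.2 (6.16%, against 2.26%) and 26 in xxChIP H1.5 (6.404%, against 1.85%). Genes with no covered base were more common than among all genes, at 116 in xChIP H1.2 (28.6%, against 16.1%), 159 in xChIP H1.5 (39.2%, against 28.9%), 177 in xxChIP H1.2 (43.6%, against 38.7%) and 187 in xxChIP H1.5 (46.1%, against 41.4%). Olfactory receptor genes, 74 of the 406, made up 61, 56, 57 and 57 of these, in the same order. The olfactory receptor genes elsewhere also had a median of 0% in every list. The shares and medians given here thus depend on how many such genes the windows hold. Promoters (TSS ± 1000 bp) with a peak numbered 166 in xChIP H1.2 (40.9%, against 49.3% of all promoters), 90 in xChIP H1.5 (22.2%, against 22.1%), 50 in xxChIP H1.2 (12.3%, against 8.89%) and 48 in xxChIP H1.5 (11.8%, against 8.06%).

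Zinc finger genes had higher median xxChIP coverage here than elsewhere. The ZNF genes encode zinc finger proteins, many of which carry a KRAB domain and silence transposable elements. The 30 pericentromeric members had median covered shares of 30.1% in xxChIP H1.2 and 25.7% in xxChIP H1.5, against 12.6% and 9.87% for 474 elsewhere, and of 17.0% and 12.2% for the xChIP lists, against 18.6% and 10.0%. The highest values were among the 12 members on 19p, with medians of 49.9% and 49.0% in xxChIP and 12.1% and 12.3% in xChIP. Of the other arms, both medians were above those elsewhere on 2q (3 members, 18.9% and 26.4%), 7p (2 members, 14.9% and 20.1%), 10p (4 members, 16.6% and 9.99%), 6p (1 member, 31.3% and 26.3%) and 18p (1 member, 21.6% and 24.99%). On 10q, the 5 members had xxChIP medians of 9.69% and 0%. The 1 member on 1p was covered to 5.99% and 0% in xxChIP, and the 1 member on 20p to 13.6% and 6.27%. ZNF728 was covered to 89.8% in xxChIP H1.2 and 73.6% in xxChIP H1.5, against 18.9% and 12.8% in xChIP. ZNF726 was covered to 49.8% and 86.5% in xxChIP and 6.65% and 4.94% in xChIP. ZNF91, which represses SVA retrotransposons, was covered to 41.5% and 70.2% in xxChIP and 13.5% and 11.7% in xChIP. ZNF254, the member on 19p nearest to the gap, was covered to 17.6% and 12.0% in xxChIP, below its 28.3% and 24.2% in xChIP.

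POTE genes, a primate family of recent duplicates with ankyrin repeats, have 7 members in these windows. Their median covered share was 49.7% in xxChIP H1.2 and 32.3% in xxChIP H1.5, against 5.32% and 15.2% in xChIP, and for the 6 members elsewhere it was 44.5%, 17.3%, 4.46% and 8.16%. POTEG on 14q was covered to 100% in xxChIP H1.2 and 60.6% in xxChIP H1.5, and POTEH on 22q to 74.7% and 69.1%. POTEA on 8p had the opposite pattern, with 57.4% and 66.8% in xChIP and 0% and 7.35% in xxChIP. The window of its start has 98.0% unique words, against 13% for POTEG and 17.0% for POTEH, which share most of their sequence with other copies, so that their values are uncertain.

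Other families were small or mostly without peaks. Of 74 olfactory receptor genes, short genes that lie in clusters on 11p, 11q, 14q and 22q, between 56 and 61 had no covered base in a given list, and the median was 0% both here and elsewhere. The 3 ANKRD genes had xxChIP H1.2 shares of 14.7% for ANKRD30A, 22.8% for ANKRD30B and 64.5% for ANKRD36C. TPTE, a phosphatase gene of the testis on 21p, was covered to 43.0% in xxChIP H1.2 and 12.5% in xChIP H1.2, and TPTE2 on 13q to 35.0% and 37.4%. NOTCH2 on 1p, which encodes a Notch receptor, was covered to 36.0% in xxChIP H1.2 and 19.4% in xChIP H1.2, but to 16.1% in xxChIP H1.5 and 19.1% in xChIP H1.5. The 8 IGKV segments placed outside the kappa locus had a median covered share of 100% in xxChIP H1.5 and of 0% in the other lists, against 0% in every list for 93 segments elsewhere, and those covered in xxChIP H1.5 lie in a single cluster on 22q. No GGT gene had its start here.

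The genes with the largest differences between lists were mostly short and lay wholly inside or outside a peak. TRIM48 on 11q was covered to 100% in xxChIP H1.2, 0% in xxChIP H1.5, 0% in xChIP H1.2 and 15.7% in xChIP H1.5. HSD3B2 on 1p, an enzyme of adrenal steroid synthesis, was covered to 100% in xxChIP H1.2 and 13.7% in xxChIP H1.5, and TRIM43 on 2q to 68.4% and 0%. The window of the TRIM43 start has 36% unique words, so that its values are uncertain. For OR4K13, named below, this share is 63%. TUBA3C on 13q, an alpha-tubulin gene, was covered to 100% in xChIP H1.2 and 0% in xxChIP H1.2. PSPH on 7p, the phosphatase of the last step of serine synthesis, was covered to 100% in xChIP H1.2 and 85.9% in xChIP H1.5, and to 0% by both xxChIP lists. The olfactory receptor gene OR4Q3 on 14q had the reverse pattern, with 100% in both xxChIP lists and 0% and 12.7% in xChIP. On the same arm OR4K14 was covered to 100% in xChIP H1.5 alone and OR4K13 to 100% in xChIP H1.2 alone, as was ITPRIPL1 on 2q.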

How the data were processed

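The study measured H1.2 and H1.5 by xChIP-seq and xxChIP-seq in HL-60/S4 cells. Per the paper's methods, paired-end reads were mapped with Bowtie2 (hg19, at most 2 mismatches, unique alignments only), and MUSIC with default settings gave peaks for each replicate, which were merged over the 3 replicates of a group. The authors deposited start and end coordinates, with no counts, so depth is unknown and no interval that needs it is given. Samples were grouped by protocol and antibody. The members, gene families and comparisons were chosen with earlier results of these data known.

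Peaks were read as intervals. The reference was the GRCh37 primary assembly, and every peak end lay inside its chromosome (96 of 96 chromosome maxima). The gap was the longest run of unknown bases of at least 1 Mb that does not start at base 1, or, where there is no other, the run from base 1. On chromosome 21 the short-arm side was used. Windows elsewhere were averaged per GC bin of 1 point, and in a second match also per 10-point bin of unique words (50-base words every 100 bases, exact matches on both strands). The read length is not given in the sources used here. Because lists have no replicates, no test was run. Shares are set against matched windows, with means, SDs and counts over arms. Named arms were the 2 highest and 2 lowest per list. Named genes were the given families and, per difference between lists, the 3 genes of at least 5000 bp with the largest difference. The ZNF and POTE genes singled out, the division of peaks at 20 kb in the nearest 500 kb, the division by side and the windows of all 4 lists by arm and distance were chosen after their values were seen. Repeat annotation, Input, copy number and other marks were not analysed here. The peak centre sequences of xChIP H1.2 and xxChIP H1.5 are not reported here. Steps were tested on simulated data. Python 3.11.15, numpy 2.4.6, pandas 2.3.3, numba 0.67.0, samtools 1.23.1, matplotlib 3.10.9 and pyfaidx 0.9.0.4 served for the computation.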

Additional observations from a re-analysis of the deposited data

How the results depend on the processing

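The ratio of pericentromeric to GC-matched coverage was recomputed under 22 alternatives, the change from near to far under 15, and the difference of ratios between lists under 22. Leaving out 7q or the nearest 100 kb was added after seeing the data. The ratios stayed above 1 in xChIP H1.5, between 1.01 and 1.97. For the other lists they stayed above 1 except when peak centres were counted (0.947 in xChIP H1.2, 0.868 in xxChIP H1.2, 0.906 in xxChIP H1.5) or only peaks under 20 kb were used (0.913 in xxChIP H1.2, 0.981 in xxChIP H1.5).

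The log2 ratio of near to far was 0.23 in xChIP H1.2, 0.73 in xChIP H1.5, 1.16 in xxChIP H1.2 and 1.06 in xxChIP H1.5. It reversed in the same 2 alternatives, to -0.25, -0.23, -0.35 and -0.36 with peak centres and to -0.34, -0.14, -0.15 and -0.15 with peaks under 20 kb, in that order. Both count long peaks for little or leave them out, while the known bases under long peaks still count in the total. The xChIP H1.2 value also fell to 0.077 without alpha-satellite-like windows and 0.13 without the nearest 100 kb.

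Between lists, the ratio of xChIP H1.2 minus that of xxChIP H1.2 was -0.161 and became 0.0787 with peak centres and 0.114 with peaks under 20 kb. That of xChIP H1.5 minus xxChIP H1.5 was 0.0166, and its sign depends on the setting. It was -0.00592 in windows of 50 kb, -0.0286 within 1 Mb, -0.0344 in windows of at least 90% unique words, -0.0108 without acrocentric chromosomes, -0.0242 without alpha-satellite-like windows, -0.0402 with no matching, -0.525 matched on GC and unique words, -0.00419 without 7q and -0.00895 without the nearest 100 kb. The cause was not tested. The ratio of H1.2 minus that of H1.5 was -0.225 in xChIP and -0.0478 in xxChIP, and kept its sign in all 22 alternatives. In xChIP it shrank to -0.00805 matched on GC and unique words and to -0.0382 in windows of at least 90% unique words.

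No paired analysis was possible because each list merges its replicates, and leaving out a replicate was not possible either. Peaks rest on uniquely aligned reads, whose number per window is unknown.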
